A study of Mus musculus with 2 samples.

Results

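The genes described here were 10 mediators of IL-1 and prostaglandin inflammation, out of 32285 genes in the count matrices. They were taken from a fixed list and were found in both libraries, namely Il1a, Il1b, Il1rn, Il1r2, Nlrp3, Ptgs2, Ptges, Acod1, Il6 and Tnf. Their levels were followed across immune cell types sorted from mouse liver tumors, and between tumors treated with lenvatinib alone and tumors treated with lenvatinib and palbociclib, called combo. Lenvatinib is an inhibitor of receptor tyrosine kinases used in hepatocellular carcinoma (HCC), and palbociclib is an inhibitor of the cell cycle kinases CDK4 and CDK6. Both groups were male wild-type C57BL/6J mice, 6 to 8 weeks old, in which human MYC was overexpressed and Trp53 was knocked out in liver cells by hydrodynamic injection of plasmids (Trp53KO/MYCOE). All mice received lenvatinib from 12 days after the injection for 25 days, until the tumors were resistant, and then either lenvatinib at 30 mg/kg alone or lenvatinib at 30 mg/kg with palbociclib at 100 mg/kg. Hydrodynamic injection delivers plasmids mainly to hepatocytes. There was 1 library of live CD45+ cells for each treatment, and the number of mice behind a library is not given in the sources used here.

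IL-1 alpha and IL-1 beta act on the same receptor and start a local inflammatory response, in which blood vessels are activated and more myeloid cells are drawn in. IL-1 beta is made as an inactive precursor that is cut after an inflammasome is assembled, whereas its action is limited by a receptor antagonist and by a decoy receptor. Prostaglandin E2, which is made from arachidonic acid by cyclooxygenases and a terminal synthase, is induced in the same setting, and neutrophils, monocytes and macrophages are known as its main sources among immune cells.

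The 10 genes were placed on the mouse genome mm10 (GRCm38). The ligands Il1a (chr2:129299610-129309972, minus strand) and Il1b (chr2:129364570-129371139, minus strand) are neighbors on chromosome 2. The receptor antagonist Il1rn (chr2:24336853-24351494, plus strand) lies on the same chromosome, and the decoy receptor Il1r2 lies on chromosome 1 (chr1:40074079-40125231, plus strand). Nlrp3 (chr11:59541568-59566956, plus strand) encodes the sensor of an inflammasome. Ptgs2 (chr1:150100031-150108227, plus strand) encodes the inducible cyclooxygenase COX-2, and Ptges (chr2:30889471-30929863, minus strand) encodes an inducible prostaglandin E synthase. Acod1 (chr14:103046977-103056573, plus strand) encodes the enzyme that makes itaconate, a metabolite of activated myeloid cells. Il6 (chr5:30013114-30019981, plus strand) and Tnf (chr17:35199381-35202007, minus strand) encode cytokines that are induced together with IL-1.

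After cells with over 6000 genes or over 25% mitochondrial UMIs were removed, 14201 cells remained under lenvatinib and 11613 under combo, with a median of 5541 and 5754 UMIs (unique molecular identifiers, each standing for 1 captured transcript). A UMI of Ptprc, which encodes CD45, was found in 95.4% of kept cells of each library, and the libraries shared 49 barcodes. Cells were assigned by 1 gene each, and a cell that passed several gates was kept apart. Neutrophils had a Csf3r UMI and were divided at a level of 1000 CPM of Camp, a granule gene of immature neutrophils. This left 766 Camp-low and 48 Camp-high neutrophils under lenvatinib, and 1356 and 281 under combo. Monocytes (Csf1r) numbered 173 and 448, macrophages (C1qa) 94 and 44, dendritic cells (Flt3) 365 and 315, and basophils (Mcpt8) 16 and 8. T cells (Cd3e, 6100 and 4160), NK cells (Ncr1, 2556 and 1011) and B cells (Cd79a, 524 and 571) served as types in which IL-1 genes are not expected. Camp-low cells expressed all 6 neutrophil markers, with a summed level of 49326 CPM under lenvatinib and 158537 CPM under combo, and also held RNA of all 5 NK markers, with 2078 and 716 CPM. CPM here is the sum of a gene's UMIs over the cells of a type, for each 1000000 UMIs of those cells (for the Camp limit, of the single cell). One 3′ tag is counted per transcript, so that levels of different genes are compared here as shares of UMIs without a correction for length. With 1 library per treatment no test between treatments was possible, and the 95% intervals cover counting error only.

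Il1b was the most abundant of the 10 genes in Camp-low neutrophils of both libraries, and these cells were the main source of most of the set. Il1b stood at 4768 CPM under lenvatinib and 6285 CPM under combo. It was followed under lenvatinib by Acod1 with 1353 CPM, Ptgs2 with 1206 CPM, Il1r2 with 1067 CPM and Nlrp3 with 782 CPM. Il1rn with 323 CPM and Tnf with 310 CPM were lower, and Il1a stood at 41.8 CPM. The combo library placed Acod1 (1197 CPM), Il1r2 (880 CPM), Nlrp3 (610 CPM) and Ptgs2 (589 CPM) after Il1b, so Ptgs2 moved from the third place to the last of these 5 genes. The counting intervals of Nlrp3 and Ptgs2 under combo, 593 to 627 CPM and 572 to 606 CPM, overlapped, and so did those of Il1rn and Tnf in both libraries. Ptges and Il6 were nearly absent from these neutrophils, with 0 and 2 UMIs for Ptges and 7 and 5 UMIs for Il6.

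**Figure D1:**
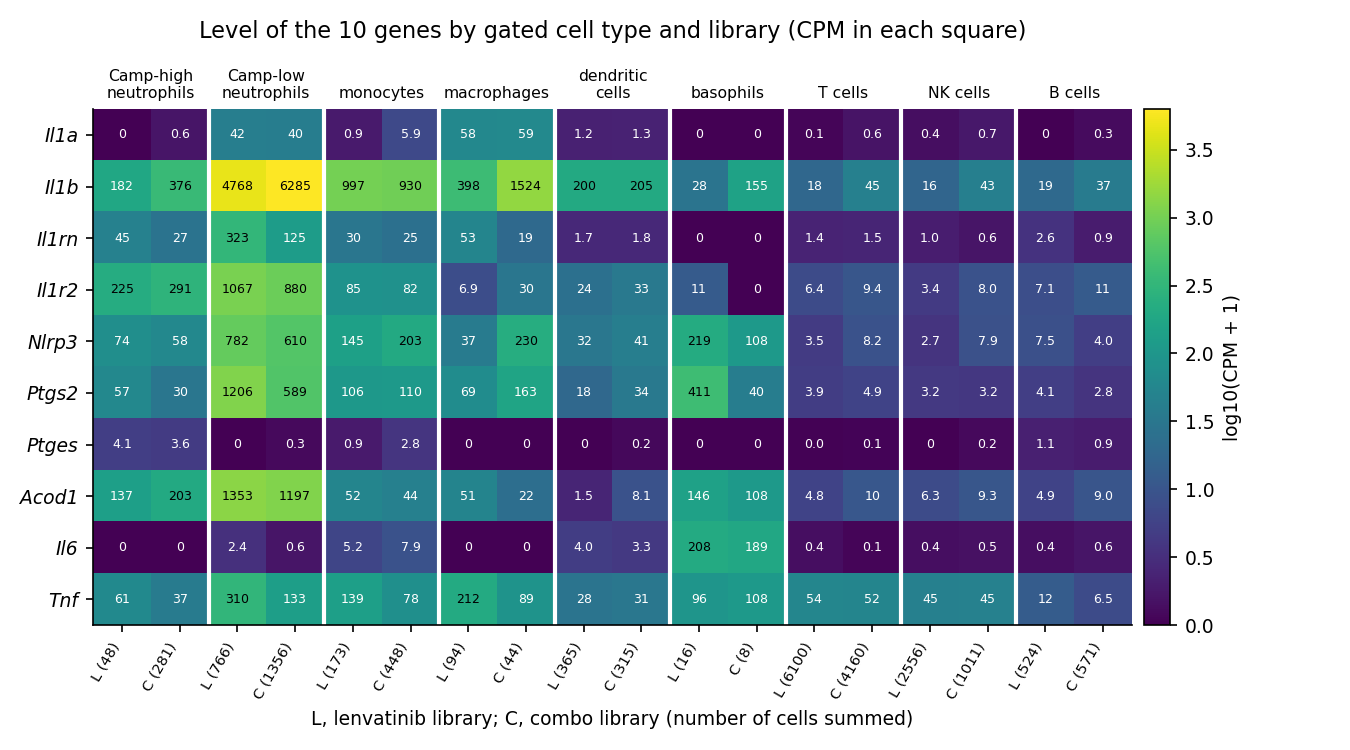
Level of the 10 genes (rows) in 9 gated cell types (pairs of columns), with the lenvatinib library (L) on the left and the combo library (C) on the right of each pair. Color gives log10(CPM + 1), the number in a square is the CPM, and the number in brackets is the count of cells summed. Camp-low neutrophils hold the highest level of Il1b (4768 and 6285 CPM), Ptgs2, Acod1, Il1r2, Nlrp3 and Il1rn in both libraries, whereas Il6 is highest in basophils.

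The share of all UMIs of a gene that lay in Camp-low neutrophils was 51.8% under lenvatinib and 53.7% under combo for Il1b. It was 55.0% and 50.6% for Ptgs2, and 60.6% and 57.3% for Acod1. Much of the rest lay in cells that passed several gates, which held 31.3% and 35.5% of the Il1b UMIs. Tnf was spread differently. Camp-low neutrophils held 15.0% of its UMIs under lenvatinib and 19.2% under combo, while T cells held 39.8% and 26.7%. Over all kept cells the Il1b level was 287 CPM under lenvatinib and 1012 CPM under combo, and that of Ptgs2 was 68.5 and 101 CPM. Camp-low neutrophils made up 5.39% of kept cells under lenvatinib and 11.7% under combo, so the library-wide levels combine the number of these cells with the level within them.

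Within neutrophils the genes were divided by maturity. Il1b stood at 182 CPM in Camp-high and 4768 CPM in Camp-low cells under lenvatinib, a ratio of 26.2 (95% interval 21.2 to 32.6). The combo library gave 376 and 6285 CPM, a ratio of 16.7 (15.9 to 17.5). Camp-low cells were thus far above Camp-high cells for Il1b in both libraries at this limit. Ptgs2 stood at 57.4 and 1206 CPM under lenvatinib, a ratio of 21.0 (14.5 to 31.7), and at 29.7 and 589 CPM under combo, a ratio of 19.9 (16.8 to 23.7). The decoy receptor Il1r2 stood at 225 and 1067 CPM under lenvatinib, a ratio of 4.74 (3.92 to 5.78), and at 291 and 880 CPM under combo, a ratio of 3.02 (2.85 to 3.21). Tnf lay close to it, with ratios of 5.05 (3.51 to 7.52) and 3.61 (3.07 to 4.26). Nlrp3 ratios were 10.6 and 10.5, Acod1 ratios were 9.86 and 5.91, and Il1rn ratios were 7.17 and 4.67. With Il1a, which had 0 and 3 UMIs in Camp-high cells, all 8 members tested were at least 2-fold higher in the Camp-low cells of each library, against 37.4% of all genes under lenvatinib and 39.6% under combo. The 6 neutrophil markers alone made up 298423 and 376096 CPM of the Camp-high cells.

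The levels did not follow Camp in steps. Cells without any Camp UMI had 5006 CPM of Il1b and 1299 CPM of Ptgs2 under lenvatinib, and cells with at least 5000 CPM of Camp had 163 and 56.7 CPM. Between these ends, 26 cells with Camp below 300 CPM had 437 CPM of Il1b and 49.0 CPM of Ptgs2, at a median of 9021 UMIs. The 47 cells from 300 to 1000 CPM, at a median of 2285 UMIs, had 9835 and 1951 CPM, above the cells without Camp. Under combo Il1b stood at 7612 CPM without Camp, 3935 CPM below a Camp level of 300 CPM (287 cells), 6460 CPM from 300 to 1000 CPM (142 cells) and 265 CPM from 5000 CPM on. With the limit set at 300 CPM, the ratios of Camp-low to Camp-high cells were smaller, at 2.13 for Il1b, 2.66 for Ptgs2 and 1.79 for Tnf under lenvatinib, and 5.31, 5.14 and 2.44 under combo. Near the limit of 1000 CPM, 27 of 814 neutrophils under lenvatinib and 82 of 1637 under combo had between 500 and 2000 CPM of Camp.

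The start sites of 3 members are shown, picked for their ratios between the libraries given below. Each line gives the 250 bases before the RefSeq start on the sense strand, 5′ to 3′, from GRCm38.p6 (mm10). Capitals mark matches to GGG and CC set 5 bases apart (an NF-kB motif) or TTGCNNAA (a C/EBP motif), both searched on both strands together with TGANTCA (an AP-1 motif). The windows are chr1:150099781-150100030 (plus strand) for Ptgs2, chr2:129371140-129371389 (minus strand) for Il1b and chr17:35202008-35202257 (minus strand) for Tnf.
Ptgs2: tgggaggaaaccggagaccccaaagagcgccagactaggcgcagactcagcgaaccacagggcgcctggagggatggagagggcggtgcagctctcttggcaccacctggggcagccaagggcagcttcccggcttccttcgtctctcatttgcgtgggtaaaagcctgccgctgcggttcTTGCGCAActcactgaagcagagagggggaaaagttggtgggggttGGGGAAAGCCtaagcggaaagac
Il1b: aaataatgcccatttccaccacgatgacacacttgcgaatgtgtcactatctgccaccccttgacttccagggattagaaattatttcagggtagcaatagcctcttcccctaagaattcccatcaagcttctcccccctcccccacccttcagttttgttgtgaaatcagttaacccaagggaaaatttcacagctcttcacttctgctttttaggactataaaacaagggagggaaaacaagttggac
Tnf: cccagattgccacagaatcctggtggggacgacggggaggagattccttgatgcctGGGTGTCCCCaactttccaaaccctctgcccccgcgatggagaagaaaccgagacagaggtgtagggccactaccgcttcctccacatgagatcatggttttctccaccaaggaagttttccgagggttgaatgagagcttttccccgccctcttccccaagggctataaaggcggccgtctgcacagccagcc

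Counted from the start site, the Ptgs2 window held TTGCGCAA at -69 to -62 and GGGGAAAGCC at -23 to -14, and the Tnf window held GGGTGTCCCC at -194 to -185, which matches on both strands. The Il1b window held none of the 3 motifs in these letters. Among the members not shown, the Il1r2 window, a window of Il1rn and a window of Nlrp3 also held none, and the Il1a window held no NF-kB letters. All 10 genes had a RefSeq start, with 13 windows in all. The NF-kB letters were found in 8 of the 13 windows, from 7 of the 10 genes, against 45.98% of 32536 windows of all genes. AP-1 letters were found in 3 of the 13 windows (Il1a, Il1rn and Il6), against 6.728% of all windows. C/EBP letters were found in 2 (Ptgs2 and Il6), against 9.571%. A match is a run of letters and does not show binding, and a link of the motifs to the ratios was not tested.

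The comparison of combo with lenvatinib asks how the addition of palbociclib went with the state of these myeloid cells in resistant tumors. In Camp-low neutrophils 3 members, Ptgs2, Il1rn and Tnf, were at least 2-fold lower under combo. The count stands against 14.2% of 7517 genes at least 2-fold lower among all genes tested, with 8 of the 10 members among them. No member was at least 2-fold higher, against 2.53% of the genes. Most genes were lower in this cell type under combo, with a median log2 ratio of -0.47 over all genes tested and of -0.32 over the 8 members. In all, 7 of the 8 members had a ratio below 1, against 80.9% of all genes tested, so the shared direction does not set the members apart.

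Camp-low cells of the combo library carried more RNA of immature neutrophils. The 5 immature markers, all present in both libraries, summed to 997 CPM under lenvatinib and 5279 CPM under combo, and Camp itself stood at 31.3 and 94.5 CPM. The same list was also higher under combo in types that are not neutrophils. It summed to 150 and 584 CPM in T cells, 132 and 1986 CPM in NK cells and 62.8 and 906 CPM in B cells. The rise was therefore not particular to Camp-low cells. In the cells without any Camp UMI, 693 under lenvatinib and 927 under combo, a limit chosen after the data were seen, Ptgs2 was 1299 and 730 CPM, a ratio of 0.562 that is no longer past 2-fold. Il1rn gave 0.422 and Tnf 0.479 in these cells, so 2 members were at least 2-fold lower there, against 14.1% of genes, and Il1b gave 1.52. Under combo the cells without a Camp UMI had a median of 3900 UMIs, against 7236 UMIs in cells with Camp above 0 and below 300 CPM. The parts of maturity, depth and background RNA in the ratios were not tested.

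Among the ligands, Il1b was 4768 CPM under lenvatinib (14156 UMIs) and 6285 CPM under combo (49000 UMIs), a ratio of 1.32 (1.29 to 1.34) that became 0.966 when the cells also had to express S100a9. After each cell was thinned to 1000 UMIs, an Il1b UMI was found in 553 of 727 cells (76.1%) under lenvatinib and in 1065 of 1332 cells (80.0%) under combo. Most Camp-low neutrophils of both libraries were therefore Il1b positive. Il1a stood at 41.8 and 40.3 CPM, a ratio of 0.964 (0.781 to 1.20), and a difference was not detectable at this depth.

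Of the inhibitors of IL-1, Il1rn was past 2-fold and Il1r2 was not. Il1rn, the receptor antagonist, stood at 323 CPM (959 UMIs) under lenvatinib and 125 CPM (972 UMIs) under combo, a ratio of 0.386 (0.353 to 0.422). Its share of thinned cells was 25.9% and 14.0%. Il1r2, the decoy receptor, stood at 1067 and 880 CPM, a ratio of 0.824 (0.790 to 0.860), above the median of all genes, and was found in 57.4% (53.7 to 61.0) and 53.8% (51.1 to 56.5) of thinned cells. Set against the ligands, there were 67.2 Il1rn UMIs per 1000 UMIs of Il1a and Il1b under lenvatinib (62.8 to 71.7) and 19.7 under combo (18.5 to 21.0). Il1r2 gave 222 and 139 UMIs on the same scale. Per ligand UMI, both were lower in the combo library. In monocytes the same measure was 30.6 and 26.3 for Il1rn and 84.7 and 87.9 for Il1r2, with overlapping intervals for each.

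Ptgs2, the inducible cyclooxygenase, stood at 1206 CPM (3580 UMIs) under lenvatinib and 589 CPM (4591 UMIs) under combo, a ratio of 0.488 (0.467 to 0.510), or 0.562 in cells without a Camp UMI. A Ptgs2 UMI was found in 348 of 727 thinned cells (47.9%, 44.2 to 51.6) under lenvatinib and in 465 of 1332 (34.9%, 32.3 to 37.5) under combo. Both the level and the share of positive cells were lower under combo. T cells, which served as a background, had a Ptgs2 UMI in 0.449% and 0.507% of thinned cells, at a median of 6342 and 5646 UMIs against 2634 and 4340 UMIs in the Camp-low cells before thinning. Ptges, which acts after COX-2, had 0 UMIs in Camp-low cells under lenvatinib and 2 under combo, so this inducible synthase was not measurable there. Of the other prostaglandin E synthase genes, Ptges3 stood at 161 and 112 CPM and Ptges2 at 4.72 and 4.36 CPM in these cells.

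Tnf stood at 310 CPM (921 UMIs) under lenvatinib and 133 CPM (1038 UMIs) under combo, a ratio of 0.429 (0.392 to 0.470), with 25.9% and 11.9% of thinned cells positive. Nlrp3 stood at 782 and 610 CPM, a ratio of 0.780 (0.742 to 0.820), and Acod1 at 1353 and 1197 CPM, a ratio of 0.885 (0.852 to 0.918). The shares of thinned cells were 49.8% and 42.9% for Nlrp3, and 52.8% and 51.9% for Acod1. The last of these pairs had overlapping intervals. Camp-low cells of the combo library held more UMIs each, and the mean number of UMIs per cell gave a ratio of 0.724 for Ptgs2, 0.573 for Il1rn and 0.637 for Tnf, but 1.31 for Acod1, 1.22 for Il1r2 and 1.16 for Nlrp3. The lower values of Ptgs2, Il1rn and Tnf were present on both scales, whereas those of Acod1, Il1r2 and Nlrp3 were turned by the choice of scale.

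**Figure D2:**
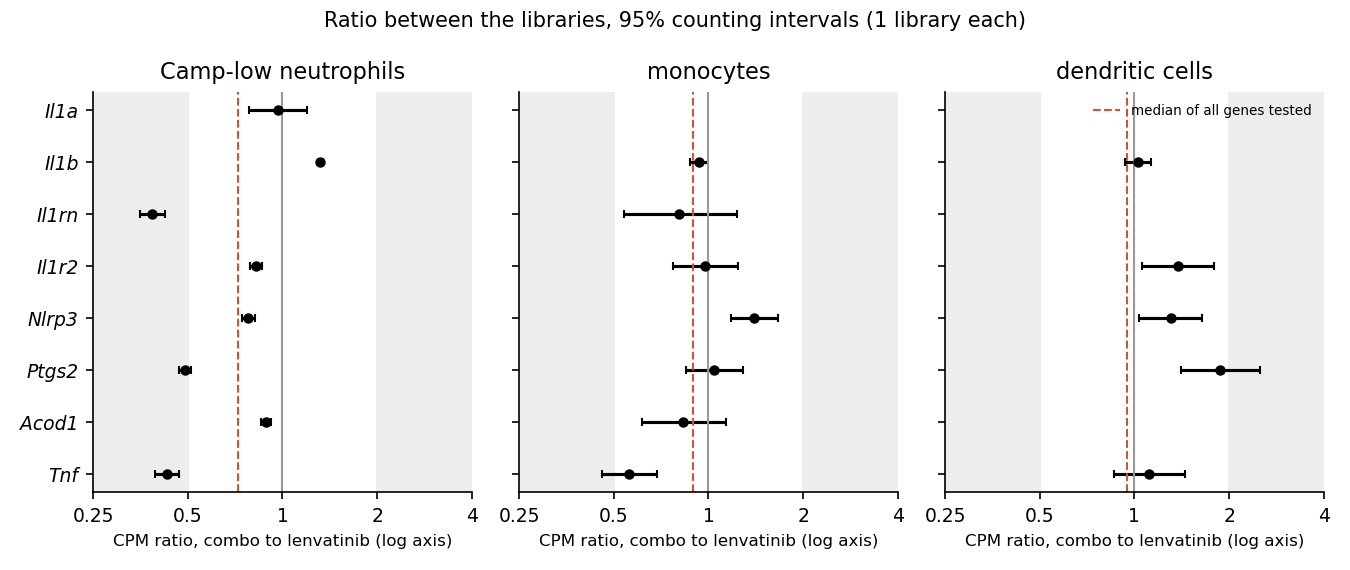
Ratio of CPM under combo to CPM under lenvatinib (log axis) in Camp-low neutrophils, monocytes and dendritic cells, for members with at least 10 CPM in 1 library. Points are ratios, bars are 95% counting intervals for 1 library each, the dashed line is the median of all genes tested and gray marks 2-fold or more. In Camp-low neutrophils Ptgs2 (0.488, but 0.562 in cells without a Camp UMI), Tnf (0.429) and Il1rn (0.386) lie in the gray area, and Il1b (1.32 here, 0.966 with S100a9 required) is the member above 1.

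The gate on Csf3r alone admitted cells with little neutrophil RNA. S100a9, a major neutrophil protein gene, was under 3000 CPM in 300 of 766 Camp-low cells (39.2%) under lenvatinib and in 364 of 1356 (26.8%) under combo. S100a9 RNA was also higher under combo in other types. It stood at 187 and 3523 CPM in NK cells, 136 and 1758 CPM in B cells and 238 and 1199 CPM in T cells. The limit of 3000 CPM may thus not select neutrophils equally in both libraries, and these shares do not rank their purity. The gate was made stricter in several ways, of which the limits on Ncr1 and S100a9 were chosen after the data were seen. With S100a9 of at least 3000 CPM, 466 cells under lenvatinib and 992 under combo remained, and the NK marker sum was 474 and 122 CPM. Il1b then stood at 8263 CPM under lenvatinib and 7983 CPM under combo, a ratio of 0.966. Ptgs2 stood at 2054 and 685 CPM, a ratio of 0.334. Il1rn gave a ratio of 0.293, Tnf 0.296, Nlrp3 0.552, Il1r2 0.608, Acod1 0.631 and Il1a 0.682. With at least 2 Csf3r UMIs (519 and 1047 cells) the ratios were 1.01 for Il1b, 0.356 for Ptgs2, 0.299 for Il1rn and 0.321 for Tnf, and without any Ncr1 UMI (640 and 1233 cells) they were 1.01, 0.373, 0.311 and 0.319. The higher Il1b level under combo thus depended on the gate. Ptgs2, Il1rn and Tnf were lower by a greater factor in each of these 3 gates. With the limit of no Camp UMI alone, described above, they were lower by a smaller factor. The same 3 members were past 2-fold in these 3 stricter gates, against 14.5% to 20.1% of all genes. With the S100a9 limit and no Camp UMI together (421 and 678 cells), also chosen after the data were seen, the ratios were 1.14 for Il1b, 0.329 for Il1rn and 0.347 for Tnf, Ptgs2 had a log2 ratio of -1.32, and 18.9% of genes were at least 2-fold lower.

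**Figure D3:**
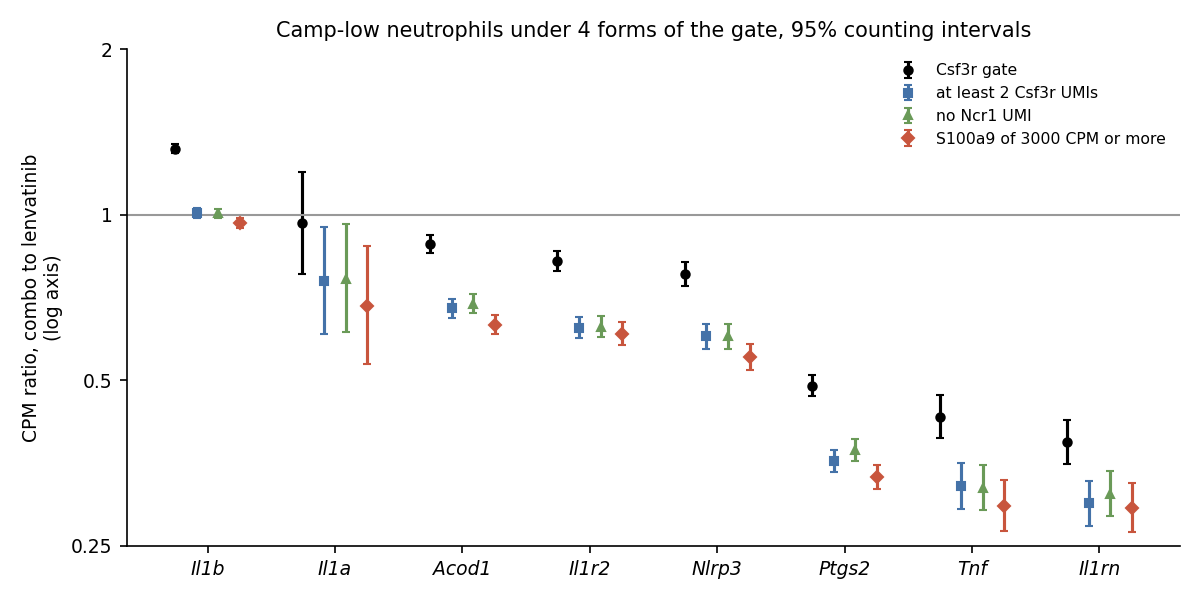
Ratio of CPM under combo to CPM under lenvatinib (log axis) in Camp-low neutrophils for 8 members under 4 forms of the neutrophil gate, with 95% counting intervals. Black circles are the gate on Csf3r, and the other symbols are the stricter gates. S100a9 stood at 187 and 3523 CPM in NK cells, so the S100a9 limit may not act equally in both libraries. Il1b moves from 1.32 to between 0.966 and 1.01, and Ptgs2, Tnf and Il1rn move from between 0.386 and 0.488 to between 0.293 and 0.373.

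The levels were uneven among the Camp-low cells of a library. In cells with at least 1000 UMIs, the median level of Il1b was 5930 CPM under lenvatinib and 6957 CPM under combo. The median of Ptgs2 was 649 CPM and 91.9 CPM, and its upper quartile was 2732 and 1144 CPM. The upper end of the Ptgs2 levels was thus lower under combo as well as the middle. Ptgs2 was 0 up to percentile 39 under lenvatinib and 48 under combo, so its medians lay near the edge of detection. These levels were not thinned, and Camp-low cells had a median of 2634 and 4340 UMIs. The size of the difference between the Ptgs2 medians is therefore not read. The tenth of cells with the most Ptgs2 held 44.7% of its UMIs under lenvatinib and 51.5% under combo, compared with 32.2% and 28.3% for Il1b and 60.9% and 62.0% for Tnf.

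**Figure D4:**
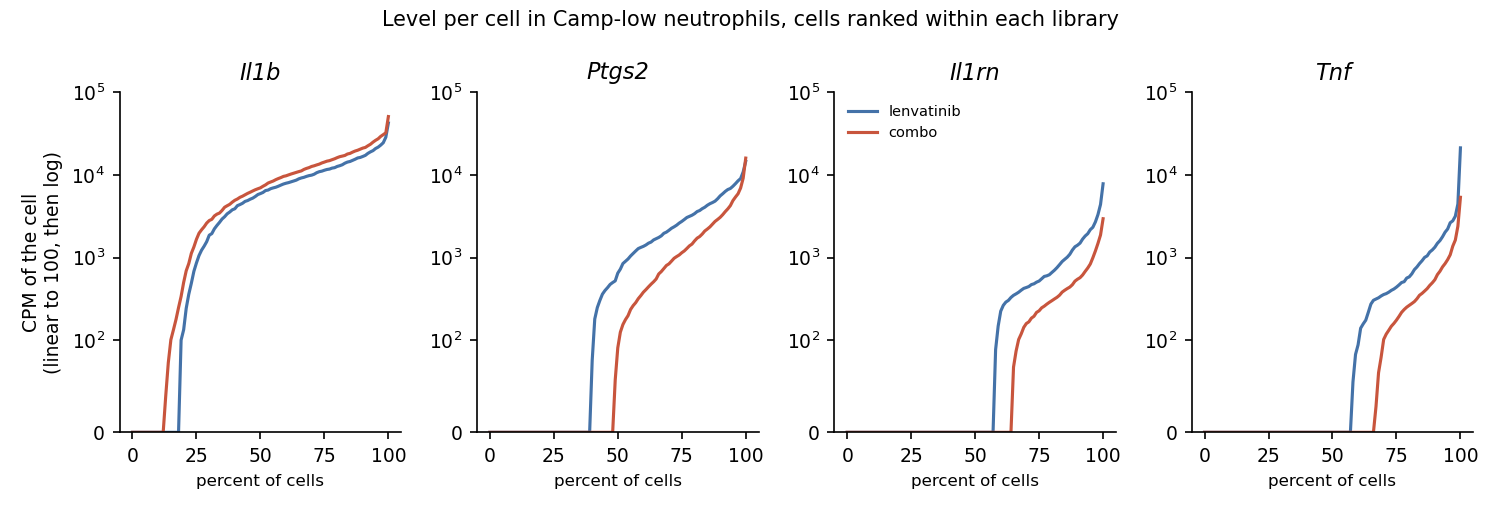
CPM of single Camp-low neutrophils with at least 1000 UMIs (727 under lenvatinib, 1332 under combo), ranked within each library from the lowest to the highest. The vertical axis is linear to 100 CPM and logarithmic above. For Il1rn and Tnf both curves are at 0 up to percentile 57, and the combo curve lies below that of lenvatinib above it, whereas for Ptgs2 it lies below from percentile 40 to 99. The Il1b medians are 5930 and 6957 CPM.

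Within the gate on Csf3r alone, members were found together in the same cells. Among thinned Camp-low cells, Il1b was detected in 98.3% of the 348 Ptgs2-positive cells under lenvatinib and in 55.7% of the 379 Ptgs2-negative cells. Under combo it was detected in 97.6% of 465 positive and 70.5% of 867 negative cells. Nearly every cell with Ptgs2 therefore also had Il1b. Nlrp3 was found in 69.5% of positive and 31.7% of negative cells under lenvatinib, and in 57.8% and 34.8% under combo. Il1rn was found in 35.6% and 16.9% under lenvatinib, and in 25.2% and 8.07% under combo. Tnf was found in 35.1% and 17.4% under lenvatinib, and in 19.1% and 8.07% under combo. The Ptgs2-positive cells were shallower than the Ptgs2-negative cells before thinning, with a median of 2473 against 3277 UMIs under lenvatinib and 3386 against 5434 UMIs under combo. Il1b-positive cells had a median of 2474 and 3999 UMIs, against 6588 and 7679 UMIs in Il1b-negative cells. This gate admitted cells with little neutrophil RNA, which may lie among the negative cells. Whether the members go together within neutrophils was not tested.

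The difference between the libraries was also present among the Il1b-positive cells alone. Of these, 342 of 553 (61.8%) had a Ptgs2 UMI under lenvatinib and 454 of 1065 (42.6%) under combo. Il1rn was found in 32.4% and 17.2% of them, and Tnf in 32.0% and 13.6%. Acod1 was found in 67.5% and 62.4%, Il1r2 in 72.7% and 64.6%, and Nlrp3 in 63.7% and 50.9%. Cells with 5 or more of the 10 members made up 38.8% of Camp-low cells under lenvatinib and 19.4% under combo, and those with 3 or more made up 68.5% and 61.9%. Among T cells, 0.0832% and 0.0724% had 3 or more.

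**Figure D5:**
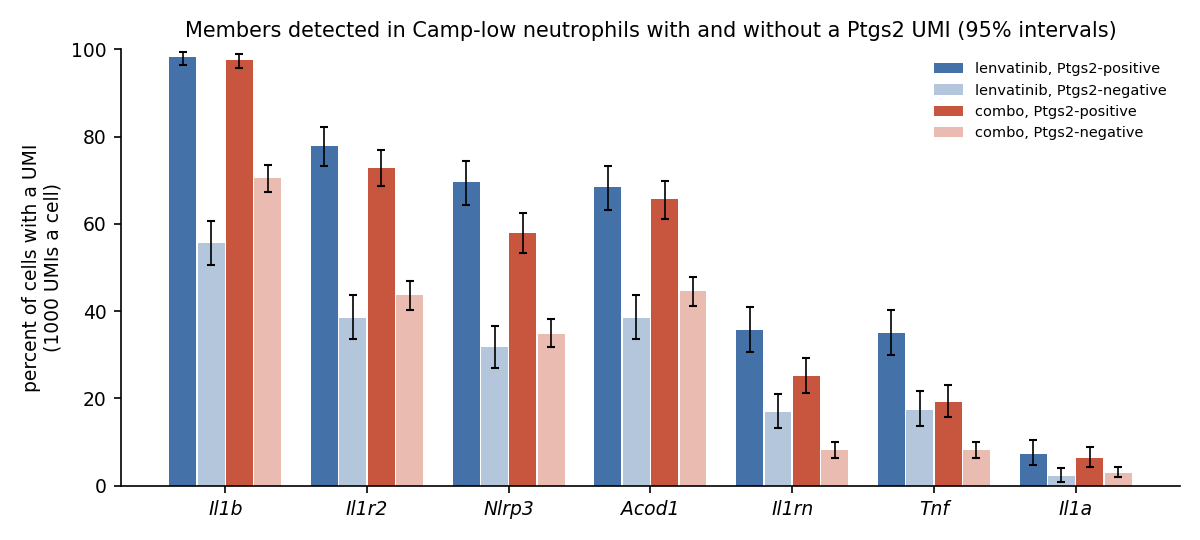
Share of Camp-low neutrophils, thinned to 1000 UMIs, with a UMI of each of 7 members, divided by library and by the presence of a Ptgs2 UMI in the same cell. Bars are percent of cells and lines are exact 95% intervals. The cells are those of the gate on Csf3r alone, which admitted cells with little neutrophil RNA. Dark bars (Ptgs2 positive) exceed light bars (Ptgs2 negative) for each gene in both libraries, as for Il1b with 98.3% against 55.7% under lenvatinib and 97.6% against 70.5% under combo.

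Camp-high neutrophils held low levels of the set. Il1b stood at 182 CPM (89 UMIs) under lenvatinib and 376 CPM (1763 UMIs) under combo, a ratio of 2.06 (1.67 to 2.58) that reversed to a log2 ratio of -0.86 with a Camp limit of 300 CPM. It was the 1 of 7 members tested that was at least 2-fold higher, against 2.84% of genes, and none was at least 2-fold lower, against 26.3%. Ptgs2 stood at 57.4 and 29.7 CPM, a ratio of 0.517 (0.343 to 0.806). Il1rn gave a ratio of 0.592 (0.374 to 0.978) and Tnf a ratio of 0.601 (0.406 to 0.917). The limit of 300 CPM adds to the 48 cells under lenvatinib the 47 cells with 300 to 1000 CPM of Camp, in which Il1b stood at 9835 CPM.

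Monocytes had Il1b as their leading member as well, at a level well below that of Camp-low neutrophils. It stood at 997 CPM under lenvatinib (1144 UMIs) and 930 CPM under combo (3291 UMIs), a ratio of 0.933 (0.872 to 0.999), with 36.3% and 32.7% of thinned cells positive. Ptgs2 stood at 106 and 110 CPM, a ratio of 1.04 (0.846 to 1.28), and a difference in Ptgs2 of the size seen in Camp-low neutrophils lay outside this interval. Tnf was lower under combo, with 139 CPM (160 UMIs) and 78.0 CPM (276 UMIs), a ratio of 0.559 (0.459 to 0.684). Nlrp3 was higher, with 145 and 203 CPM and a ratio of 1.40 (1.18 to 1.67). Il1rn, Il1r2 and Acod1 had intervals that included 1. None of the 7 members tested was past 2-fold in monocytes, against 8.28% of genes lower and 3.77% higher. The monocytes of the combo library also held more neutrophil RNA, with a neutrophil marker sum of 2425 CPM under lenvatinib and 17424 CPM under combo, all 6 markers present in both. The 6 monocyte markers summed to 6578 and 12916 CPM in these cells, so under combo the neutrophil sum was the larger. The monocyte list summed to 8389 and 12633 CPM in Camp-high neutrophils and to 1320 and 3079 CPM in Camp-low neutrophils. The name of this class thus rests on the Csf1r gate. There were 1032 Il1b UMIs per 1000 S100a9 UMIs in monocytes under lenvatinib, against 222 in Camp-low neutrophils, and 127 against 92.4 under combo. The part of this neutrophil RNA in the monocyte values was not tested.

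Cells with both a Csf3r and a Csf1r UMI and no other gate gene belong to no gated type. They numbered 195 under lenvatinib and 758 under combo. These cells held all members but Il1a, Ptges and Il6 at high levels, with Il6 at 14.8 and 13.7 CPM. Their median depth was 3668 and 7473 UMIs. Il1b stood at 3964 CPM under lenvatinib and 2886 CPM under combo, a ratio of 0.728 (0.705 to 0.752), and Ptgs2 at 803 and 289 CPM, a ratio of 0.361 (0.334 to 0.390). Il1rn (195 and 61.8 CPM), Tnf (239 and 87.7 CPM), Acod1 (766 and 363 CPM) and Il1a (51.3 and 17.5 CPM) were at least 2-fold lower under combo as well, so that 5 of 9 members tested were, against 5.86% of 7514 genes. None was at least 2-fold higher, against 1.72%. Il1r2 had a ratio of 0.584 and Nlrp3 a ratio of 0.579. Whether these cells are neutrophils, monocytes or doublets was not tested.

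Macrophages were few, with 94 cells under lenvatinib and 44 under combo, and single cells held much of the UMIs of several members. Il1b stood at 398 CPM (173 UMIs) and 1524 CPM (411 UMIs), a ratio of 3.83 (3.20 to 4.60), with 95 and 160 of these UMIs in 1 cell each, and was found in 9.59% and 40.0% of thinned cells. Nlrp3 stood at 36.8 and 230 CPM (16 and 62 UMIs), a ratio of 6.24 (3.56 to 11.6), with at most 5 and 8 UMIs in a cell and 2.74% and 17.1% of thinned cells positive. Ptgs2 stood at 69.1 and 163 CPM (30 and 44 UMIs), a ratio of 2.36, but 22 and 29 of the UMIs came from 1 cell each and the shares of thinned cells were 2.74% and 2.86%. These 3 of 7 members tested were at least 2-fold higher in summed level, against 6.81% of genes.

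Tnf, Il1rn and Acod1 were at least 2-fold lower in the summed level of macrophages, against 13.1% of genes. Tnf had 92 and 24 UMIs (ratio 0.420), of which 45 and 10 came from 1 cell each, and its share of thinned cells was 4.11% and 11.4%, on the other side. Il1rn had 23 and 5 UMIs (ratio 0.350), of which 17 and 5 came from 1 cell each, and its direction reversed when the C1qa minimum was doubled. Acod1 had 22 and 6 UMIs (ratio 0.439), of which 19 came from 1 cell under lenvatinib, and it was found in 2.74% and 2.86% of thinned cells. No direction is read from these 3 genes or from Ptgs2 in macrophages. The marker sums of the macrophage class moved as well, from 3233 CPM under lenvatinib to 11264 CPM under combo for 6 monocyte markers, from 292 to 2025 CPM for neutrophil markers (5 and 6 of 6 present), from 108 to 2270 CPM for 5 immature neutrophil markers, and from 905 to 33.4 CPM for NK markers (5 and 2 of 5). The macrophage list itself summed to 16244 and 13683 CPM, with 4 and 6 of 6 markers present. Il1b UMIs numbered 3264 per 1000 S100a9 UMIs under lenvatinib and 2186 under combo, on 53 and 188 S100a9 UMIs. The part of these other cell types in the Il1b and Nlrp3 ratios was not tested.

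Dendritic cells held Il1b at 200 CPM under lenvatinib and 205 CPM under combo, a ratio of 1.03 (0.933 to 1.13). Ptgs2 stood at 18.1 CPM (73 UMIs) and 33.8 CPM (154 UMIs), a ratio of 1.87 (1.40 to 2.50) that became a log2 ratio of -0.016 when 2 Flt3 UMIs were required. Of the 5 members tested none was past 2-fold, against 2.63% of genes lower and 1.54% higher. T and NK cells carried Tnf as their own leading member, and its level was close between the libraries. In T cells Tnf stood at 53.9 and 52.1 CPM, a ratio of 0.966 (0.905 to 1.03), and in NK cells at 44.9 and 45.4 CPM, a ratio of 1.01 (0.895 to 1.15). Lower Tnf under combo was thus found in Camp-low neutrophils and monocytes, while the intervals in T and NK cells lay near 1. It was also lower in Camp-high neutrophils (ratio 0.601, 0.406 to 0.917) and in cells with both Csf3r and Csf1r (0.367, 0.318 to 0.424). Cells passing no gate gave 0.862 (0.759 to 0.978). Il1b was listed in T cells at 17.7 and 44.5 CPM, in NK cells at 16.4 and 43.0 CPM and in B cells at 18.8 and 37.4 CPM. All 3 types had a like low level in each library. Per 1000 S100a9 UMIs, Il1b UMIs numbered 74.3 in T cells, 87.8 in NK cells and 139 in B cells under lenvatinib. Under combo they numbered 37.2, 12.2 and 21.3. Whether these Il1b values are background RNA was not tested.

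Il6 followed another pattern and was highest in basophils, which are known to secrete it. The 16 basophils under lenvatinib held 37 Il6 UMIs (208 CPM), and the 8 basophils under combo held 28 (189 CPM), a ratio of 0.906 (0.534 to 1.52). An Il6 UMI was present in 8 and 5 of these cells. Among gated types the next levels were those of monocytes, with 5.23 and 7.91 CPM, and of dendritic cells, with 3.97 and 3.29 CPM. The intervals of these types overlapped. Outside the gated types, cells with both Csf3r and Csf1r stood at 14.8 and 13.7 CPM, and cells passing no gate at 10.2 and 1.86 CPM. Camp-low neutrophils had 2.36 and 0.641 CPM, so Il6 was close to absent from the cells richest in Il1b. Basophils under lenvatinib also held Ptgs2, with 411 CPM (73 UMIs, of which 45 came from 1 cell), against 40.4 CPM (6 UMIs) under combo. With so few cells no comparison of basophils between the libraries is drawn for Ptgs2. The NK marker sum in basophils was 3455 CPM under lenvatinib and 182 CPM under combo.

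The Il6 UMIs of the libraries, 211 and 268, lay in different classes. Under lenvatinib 87 UMIs were in cells that passed no gate, and under combo 168 were in cells that passed several gates, 99 of them in cells with both Csf3r and Csf1r. Cells with at least 3 UMIs over 5 basophil markers other than Mcpt8 (Gata2, Cpa3, Ms4a2, Fcer1a and Cd200r3), a limit chosen after the Il6 values were seen, held 128 of 211 Il6 UMIs (60.7%) under lenvatinib and 35 of 268 (13.1%) under combo. Under lenvatinib they included 31 cells that passed no gate and held 73 of those 87 UMIs. Most Il6 of the lenvatinib library was therefore in cells with basophil markers, and most of that in the combo library was not.

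Across the 18 sums of 9 types and 2 libraries, the genes whose log2(CPM + 1) was most like Il1b were Ptafr, the receptor of platelet-activating factor (Pearson r = 0.960), Tnfaip2 (0.952), Sirpb1c (0.947), Mcl1, a survival factor of neutrophils (0.946), and Sirpb1b (0.941). Those most like Ptgs2 were Nlrp3 (0.970), the chemokine Ccl6 (0.917), Emilin2 (0.901), the chemokine receptor Ccr1 (0.899) and Neat1 (0.891). The 2 sums of a type share their cell identity and all sums of a library share its background RNA, so these values describe the pattern of cell types. Il6 and Il1b gave r = -0.05.

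Other genes of the pathways were read in Camp-low neutrophils from fixed lists, beside the background of 14.2% lower and 2.53% higher. Of 13 genes of IL-1 receptors and signaling that could be tested, 5 were at least 2-fold lower and none higher, with a median log2 ratio of -0.32. They were the IL-18 receptor chains Il18r1 (67.4 and 26.6 CPM, ratio 0.394) and Il18rap (170 and 80.2 CPM, ratio 0.472), the kinase Irak1 (61.3 and 27.2 CPM, ratio 0.444), the ubiquitin ligase Traf6 (27.6 and 11.7 CPM, ratio 0.423) and the inhibitory receptor Sigirr. NK cells are a known site of the IL-18 receptor, and the NK marker sum in the same cells was 2078 and 716 CPM. Its part in these ratios was not tested. Of 9 genes of the inflammasome and its release, Nek7, a kinase that binds NLRP3, was at least 2-fold lower (62.0 and 29.1 CPM, ratio 0.470). None was at least 2-fold higher.

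Of 8 genes of the prostaglandin and leukotriene pathway, 1 was at least 2-fold lower and 2 were at least 2-fold higher. Ptger4, a receptor of prostaglandin E2, stood at 39.7 and 17.7 CPM, a ratio of 0.445 (0.346 to 0.574). Alox5ap, which serves leukotriene synthesis, stood at 710 and 1702 CPM, a ratio of 2.40 (2.29 to 2.51), and the thromboxane synthase Tbxas1 had 13 and 78 UMIs, a ratio of 2.29 (1.26 to 4.48). The cyclooxygenase gene Ptgs2 and the leukotriene gene Alox5ap thus lay on opposite sides of 1 in the same cells. Other leukotriene genes did not go with Alox5ap. Lta4h stood at 67.7 and 34.6 CPM, a ratio of 0.512 (0.425 to 0.617), and Alox5 had a ratio of 1.17 (0.979 to 1.41). Ltc4s, with 21 and 29 UMIs, was too low to be tested. The contrast with Ptgs2 therefore holds for Alox5ap and not for its pathway. Of 6 genes around itaconate and redox control, none was at least 2-fold lower and 2 were at least 2-fold higher. The higher genes were Gclm, for glutathione synthesis (13.8 and 66.4 CPM, ratio 4.81, 3.50 to 6.79), and the heme oxygenase Hmox1 (42.4 and 108 CPM, ratio 2.55, 2.12 to 3.10). Slc7a11 (ratio 0.719, 0.684 to 0.756), Sqstm1 (0.679, 0.609 to 0.757) and Txnrd1 (0.769, 0.684 to 0.866) were lower by less than 2-fold. Nfe2l2 had a ratio of 1.09, and the median log2 ratio of this list was -0.13. None of 17 genes of NF-kB and its feedback and none of 5 receptors of IL-6 and TNF was past 2-fold, with medians of -0.47 and -0.34 on the log2 scale.

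In monocytes, beside 8.28% of genes lower and 3.77% higher, 2 of 13 genes of IL-1 receptors and signaling were at least 2-fold lower, Il18r1 (27.9 and 13.3 CPM, ratio 0.476) and Sigirr (ratio 0.497, 0.249 to 1.02). Il1f9, the gene of the IL-1 family ligand IL-36 gamma, had 2 UMIs under lenvatinib and 56 under combo and was the 1 higher gene of that list. P2rx7, an ATP receptor that activates the inflammasome, was the 1 higher gene of 11 (6 and 56 UMIs, ratio 3.03, 1.31 to 8.60). Ptgs1, the constitutive cyclooxygenase, had 2 and 38 UMIs and was the 1 higher gene of 9, and Ier3, an early response gene of the NF-kB list, was the 1 higher gene of 17 (231 and 518 CPM, ratio 2.24, 1.97 to 2.56). The lists of IL-6 and TNF receptors and of redox control had none past 2-fold in monocytes.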

How the data were processed

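Live CD45+ cells were profiled with 3′ v3 chemistry in 1 library per treatment. The deposited matrices hold the raw counts of UMIs for each gene in each barcode (Cell Ranger 5.0.1 in the submitters' processing notes, 6.0.1 in the matrix header, genome mm10). The cell filter follows the study's methods. The minimum of a gate gene was 1 UMI, or 2 for C1qa, Mcpt8 and Cd79a, and cells had to be below the minimum of other gate genes, except that macrophages and dendritic cells could express Csf1r and that Ncr1 was not limited in myeloid cells. Counts were summed per type and library with numpy 2.4.6 and pandas 2.3.3. Exact Poisson and Clopper-Pearson intervals came from scipy 1.17.1. A gene was tested against the 2-fold limit with at least 10 CPM in 1 library and 20 UMIs in both together. No p-value was computed. Doublets, called by Scrublet in scanpy 1.11.5 at an expected 6%, were 4.464% and 2.756% of cells and were kept. For shares of cells, UMIs were drawn at random down to 1000 in each cell, without the cells that had fewer. Kept cells held 95123833 and 90165246 UMIs, and PCR copies were removed through UMIs. The steps were tested on simulated data. The members and gene lists were chosen with earlier results of these data known. Named genes were the members, list genes past 2-fold in Camp-low neutrophils or monocytes (up to 4 per list by size; Sigirr in neutrophils was added after its value was seen), and the 5 genes most like Il1b and Ptgs2. Sequences came from RefSeq. Alternatives covered the cell filter, the gates, the Camp limit, the CPM total, doublets and the thinning depth.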

Additional observations from a re-analysis of the deposited data

Results flagged for a closer look

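Several members had ratios of combo to lenvatinib on opposite sides of 1 in Camp-low neutrophils and in another myeloid type, with both counting intervals clear of 1. With 1 library per treatment these differences were not tested. Il1b had a ratio of 0.933 in monocytes against 1.32 in Camp-low neutrophils, and the second of these became 0.966 with S100a9 required. Nlrp3 had a ratio of 1.40 in monocytes and 1.30 in dendritic cells, against 0.780 in Camp-low neutrophils. Ptgs2 had a ratio of 1.87 in dendritic cells against 0.488, on a level of 18.1 and 33.8 CPM, and its log2 ratio in dendritic cells became -0.016 when 2 Flt3 UMIs were required. Il1r2 had a ratio of 1.37 in dendritic cells against 0.824. Acod1 had a ratio of 5.46 in dendritic cells (6 and 37 UMIs) against 0.885, and its level there, 1.49 and 8.12 CPM, did not exceed that in T cells, 4.82 and 9.90 CPM.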

How the results depend on the processing

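Values are log2 ratios of combo to lenvatinib in Camp-low neutrophils unless stated. The cell filter left Il1b (0.40) and Ptgs2 (-1.03) within their intervals. Il1b was 0.0093 with the gate minimum doubled, 0.46 and 0.35 with Camp limits of 300 and 3000 CPM, 0.31 without mitochondrial, ribosomal and hemoglobin genes in the total, 0.34 without doublets and 0.26 with Csf1r allowed below Csf3r. Ptgs2 was -1.49 with the doubled minimum, -1.10 with the limit of 3000 CPM, -1.12 with the smaller total and -1.10 with Csf1r allowed. Of the alternatives chosen after the data were seen, Ncr1 at 0 gave 0.0091 for Il1b and -1.42 for Ptgs2, and S100a9 of at least 3000 CPM gave -0.050 and -1.58, so the direction of Il1b reversed. No Camp UMI gave 0.60 for Il1b and -0.83 for Ptgs2, and both limits together gave 0.18 and -1.32. The count of members at least 2-fold lower was 3 in each setting, except 2 (Il1rn and Tnf) with no Camp UMI. The Ptgs2-positive share was 61.8% and 40.5% (lenvatinib and combo) with the doubled minimum, 55.8% and 41.8% at 2000 UMIs a cell and 60.4% and 38.8% with the S100a9 limit, 62.7% and 42.5% with both limits, and 54.7% under lenvatinib with Ncr1 at 0. Il1b in monocytes stayed between -0.07 and -0.10. Of 337 values of 67 other ratios, 284 stayed within the main interval, 47 did not and 6 reversed. In Camp-high neutrophils the limit of 300 CPM gave -0.86 for Acod1, -0.86 for Il1b and -0.41 for Il1r2, and allowing Csf1r gave -0.048 for Acod1. The doubled minimum gave 0.67 for Il1rn in macrophages and -0.016 for Ptgs2 in dendritic cells. The cause of these shifts was not tested. No paired analysis was possible because each treatment has 1 library, and for the same reason no replicate could be left out. Small classes (48 Camp-high neutrophils, 44 macrophages, 8 basophils) limit what the depth can show.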

Other observations

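Ptges, an inducible prostaglandin E synthase, was rare in both libraries, with 16 UMIs in 15 cells under lenvatinib and 72 UMIs in 67 cells under combo. The highest level among gated types was in Camp-high neutrophils, with 2 and 17 UMIs (4.10 and 3.63 CPM).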
